A study of Homo sapiens with 6 samples.

Results

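The genes of the human centromere and kinetochore were examined in the colorectal cancer line HCT116, of human origin. The cells had received pcYY2, a plasmid that expresses the transcription factor YY2, or pcCon, the empty vector pcDNA3.1(+). RNA-Seq was available for 3 samples of each plasmid, and no other agent or allele is named in the labels. The 42 genes were listed by name from the proteins that build these structures, with earlier results of these data known, and all 42 were found among the 50868 genes of the deposited table. They were arranged in 9 groups by the complex their protein belongs to. The plasmids were introduced into a bulk culture, so every value is an average over transfected and untransfected cells. The labels number the samples without saying that they came from separate cultures, so that p values measure the spread between these samples, which may be technical.

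The centromere is the stretch of a chromosome marked by nucleosomes that carry CENP-A, a histone H3 variant which the chaperone HJURP deposits with the help of the MIS18 proteins. On this chromatin sits the constitutive centromere-associated network (CCAN), which recruits the MIS12 and NDC80 complexes when cells enter mitosis. The NDC80 complex grips the microtubules, the SKA complex and the corona strengthen and extend that contact, the spindle checkpoint holds anaphase back while chromosomes are unattached, and the chromosomal passenger complex releases faulty attachments. Many of these genes are transcribed mainly in G2 and mitosis, so that their RNA in a bulk culture depends on the share of cells in those phases. Fewer or more cells in a phase and less or more RNA per cell cannot be told apart in these samples.

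The counted reads of a sample numbered 15158360 to 29572882, and pcYY2 sample 2 was the deepest. The floor of detection was set at 3 counts, which corresponded to 0.101 to 0.198 CPM (counts per library total), a limit that takes in counting error alone. The centromere and kinetochore genes had between 140 and 21084 counts in a sample. YY2 itself had an FPKM (the reads of a gene scaled to its length and to the library total) of 2.22, 2.52 and 1.73 in pcCon and of 11.6, 11.1 and 11.0 in pcYY2, a log2 fold change of 2.39 (SE 0.14, adjusted p = 0.00107), and its reads may come from the plasmid or from the chromosome, which cannot be told apart. Of 8 markers of a colon epithelial line, 6 passed the filter of a mean FPKM of at least 1, while CDX1 had no count in any sample and VIL1 had at most 2. The summed FPKM of these 8 markers was 302 to 314 in pcCon and 393 to 429 in pcYY2, with KRT8 and KRT19 higher in pcYY2. The 4 leukocyte markers summed to 0.422 to 0.549 FPKM in pcCon and 0.717 to 1.07 in pcYY2, without overlap. Of these 4 only CD68 did not overlap, at 0.34 to 0.45 FPKM in pcCon and 0.61 to 0.74 in pcYY2. The 3 endothelial markers summed to at most 0.157 FPKM. The 4 fibroblast markers summed to between 1.99 and 2.73, nearly all of it COL1A1, with COL1A2 at 0. The part of these markers in the results below was not tested.

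With edgeR's quasi-likelihood test, 10 of the 41 genes that passed the filter were higher in pcYY2 than in pcCon at an adjusted p of 0.05 or less, namely CDCA8, SPC24, HJURP, ZWINT, NDC80, BUB3, CENPA, KNTC1, CENPF and CENPM, and 0 were lower. Over all 12015 tested genes, 4.52% were higher and 4.85% were lower by the same rule, against 24.4% and 0 of the centromere and kinetochore genes. DESeq2 and limma also called 0 of them lower, and at an unadjusted p under 0.05 edgeR gave 21 higher and 1 lower (CENPH). At that unadjusted threshold, 1727 of the 12015 tested genes were higher and 1740 were lower. The log2 fold change was positive in 38 of the 41 and negative in CENPH, MIS12 and CENPU. Their median log2 fold change was 0.24, against 0.0020 over all tested genes, of which 50.3% were positive. In 19 of the 41 genes, each of the 3 pcYY2 samples was above each of the 3 pcCon samples, and in 0 the reverse held. These patterns were seen in 15.9% and 19.9% of all tested genes. The remaining gene, CENPP, had an FPKM of 0.756 to 1.11 over the 6 samples and was left out by the filter on low values.

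The count of 10 depended on the samples included. It was 5 without pcCon sample 1, 5 without pcCon sample 2, 3 without pcCon sample 3 and 5 without pcYY2 sample 3. Without pcYY2 samples 1 and 2 it was 8 and 7. In these fits, in that order, 163, 138, 149, 173, 411 and 270 of all tested genes were higher, against 543 with every sample. The 10 genes kept a positive log2 fold change in each of 14 alternative fits, and CDCA8 and SPC24 passed the threshold in all 14. The median over the genes lay between 0.19 and 0.25 in these fits.

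**Figure D1:**
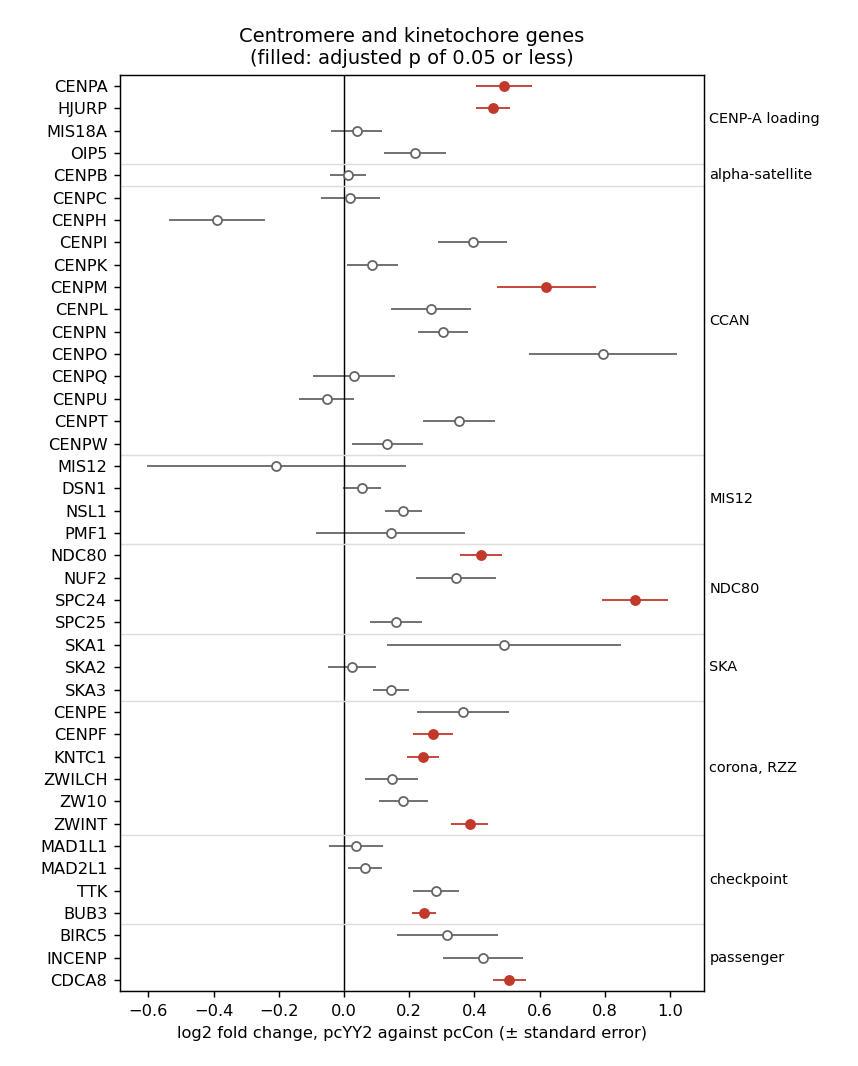
Log2 fold change of the 41 tested genes in pcYY2 against pcCon (x axis), with the standard error as a horizontal bar and the genes grouped by complex on the y axis. Filled points mark the 10 genes at an adjusted p of 0.05 or less, and 38 points lie to the right of 0, with SPC24 farthest right at 0.89 and CENPH farthest left at -0.39.

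Each sample was then set against the mean of pcCon. This mean takes in the pcCon samples themselves, so that they lie close to it in part by construction. In pcCon samples 1 to 3, 19, 22 and 18 of the 41 genes were above the pcCon mean, with a median log2 ratio of -0.02, 0.0041 and -0.01. In pcYY2 samples 1 to 3, 39, 28 and 36 genes were above it, with a median log2 ratio of 0.26, 0.14 and 0.23. All 3 pcYY2 samples therefore stood above all 3 pcCon samples in this median, and pcYY2 sample 2, the deepest library, stood closest to them. Over all tested genes the same median was between -0.02 and 0.0025 in the 6 samples.

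**Figure D2:**
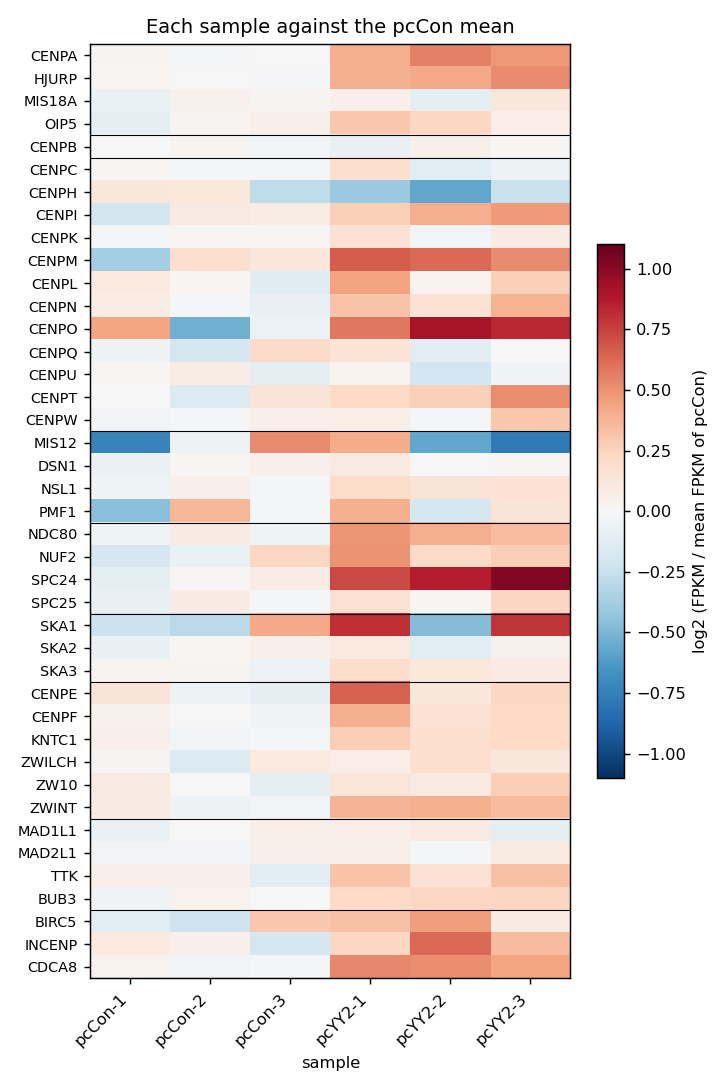
Log2 ratio of the FPKM in each sample (columns) to the mean FPKM of pcCon for the 41 tested genes (rows, with lines between complexes), from blue (lower) to red (higher). The 3 pcYY2 columns are mostly red, with 39, 28 and 36 genes above the pcCon mean, and the rows of MIS12, SKA1 and CENPO change color within a group.

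The promoters of these genes were read from RefSeq (GRCh38.p14, 250 bases before to 50 bases after the start of 1 transcript per gene), which held 34 of the 42 genes and 7 of the 10 that were higher in pcYY2. The cell cycle genes homology region (CHR), a short element known from promoters that peak in G2 and mitosis, was searched for as TTTGAA or TTCGAA on both strands. It was found in 18 of the 34 windows (52.9%), against 16.6% of all 27305 windows and 10.5% of the 8181 windows of tested genes. Among the 7 it was found in 6, namely CENPA, HJURP, NDC80, CENPF, ZWINT and CDCA8. In CENPF the CHR lay after the RefSeq start (bases 41 to 46), and in NDC80 across and after the start (bases -3 to 3 and 4 to 9). The letters CCAAT, the box bound by NF-Y, stood on either strand in 21 of the 34 windows (61.8%) and in 37.0% of those of tested genes. To show how these elements lie, the 150 bases upstream of the RefSeq start follow for the 5 genes with the smallest p that hold either element whole in that stretch, written 5′ to 3′ on the strand of the gene, with the letters of a CHR or a CCAAT box in capitals.
CDCA8: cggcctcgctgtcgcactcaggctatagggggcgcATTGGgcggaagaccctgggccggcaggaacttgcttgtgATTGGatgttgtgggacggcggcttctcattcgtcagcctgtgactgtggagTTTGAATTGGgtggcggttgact
SPC24: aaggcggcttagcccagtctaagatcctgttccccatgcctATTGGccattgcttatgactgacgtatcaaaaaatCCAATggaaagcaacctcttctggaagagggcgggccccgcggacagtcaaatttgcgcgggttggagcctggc
HJURP: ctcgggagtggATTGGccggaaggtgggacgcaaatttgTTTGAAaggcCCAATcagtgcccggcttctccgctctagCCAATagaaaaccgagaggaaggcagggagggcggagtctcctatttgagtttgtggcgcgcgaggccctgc
ZWINT: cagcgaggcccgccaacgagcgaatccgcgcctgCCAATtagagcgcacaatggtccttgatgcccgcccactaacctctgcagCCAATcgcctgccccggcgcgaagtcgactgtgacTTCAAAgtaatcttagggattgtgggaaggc
CENPA: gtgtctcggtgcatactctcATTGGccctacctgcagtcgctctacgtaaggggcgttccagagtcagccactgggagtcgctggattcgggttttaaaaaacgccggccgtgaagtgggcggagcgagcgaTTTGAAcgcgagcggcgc
The stretches are chr1:37692366-37692515 on the plus strand (CDCA8), chr19:11155783-11155932 on the minus strand (SPC24), chr2:233854536-233854685 on the minus strand (HJURP), chr10:56361260-56361409 on the minus strand (ZWINT) and chr2:26785906-26786055 on the plus strand (CENPA). In CDCA8 a CHR and a CCAAT box overlap within 1 run of capitals, and the stretch of SPC24 holds CCAAT boxes without a CHR. In ZWINT the CHR is written as its reverse complement. The deposited table places the gene starts 98, 26, 31 and 16 bases farther upstream for CDCA8, SPC24, HJURP and ZWINT, and 21767 bases farther for CENPA, so that part of a stretch may be transcribed from another start. A match of letters is a description and was not tested as a site.

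The zinc fingers of YY2 are highly similar to those of YY1, and the study gives CGCCATNTT as a consensus motif of both. This motif was therefore also searched for on both strands. The windows of 5 of the 34 genes held it (14.7%), against 7.96% of the windows of tested genes and 3.37% of all windows, and 0 of the 7 genes higher in pcYY2 were among the 5. The motif is shown in capitals with 10 bases on each side, on the strand of the gene.
OIP5: cggctgcgggAAGATGGCGgctcagccgc
CENPK: cactttccgcCGCCATGTTgttcgcatcg
CENPO: ccccagaggcCGCCATCTTcctgaccacc
MIS12: agctctggtaCGCCATCTTccccaccgtc
NSL1: gttccgacgaAAAATGGCGgggtctcctg
In OIP5 and NSL1 the motif lay after the RefSeq start (bases 28 to 36 and 12 to 20), and in CENPK, CENPO and MIS12 before it, from base -148, -95 and -218. These 5 genes had log2 fold changes of 0.22 (OIP5), 0.09 (CENPK), 0.79 (CENPO), -0.21 (MIS12) and 0.18 (NSL1), and none of them had an adjusted p of 0.05 or less. The absence of these letters says only that they are not in this window.

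At the base of the structure, the histone and its chaperone were both higher in pcYY2. CENPA (chr2:26764289-26801067), which encodes the centromeric histone itself, had an FPKM of 3.60, 3.47 and 3.51 in pcCon samples 1 to 3 and of 4.61, 5.17 and 4.92 in pcYY2 samples 1 to 3. Each pcYY2 sample lay above each pcCon sample, and the mean rose from 3.53 ± 0.07 to 4.90 ± 0.28 (SD, n = 3 each), a log2 fold change of 0.49 (SE 0.09, edgeR adjusted p = 0.0209). Without pcYY2 sample 1 its adjusted p was 0.0325, and without any other single sample it was 0.0567 to 0.0787. HJURP (chr2:233833416-233854566), the chaperone of CENP-A, had 13.4, 13.2 and 13.0 FPKM in pcCon and 17.3, 17.6 and 18.9 FPKM in pcYY2. The groups did not overlap, and HJURP rose from 13.2 ± 0.20 to 17.9 ± 0.83, with a log2 fold change of 0.46 (SE 0.05, adjusted p = 0.00625). The ratio of CENPA to HJURP in FPKM was 0.267 ± 0.0044 in pcCon and 0.274 ± 0.018 in pcYY2. These group means thus differed by less than the SD within pcYY2.

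Beside this pair, the MIS18 proteins, which prepare the centromere for new CENP-A, did not pass the threshold. The groups of MIS18A overlapped, with means of 23.7 ± 1.07 FPKM for pcCon and 24.1 ± 1.98 FPKM for pcYY2 (log2 fold change 0.04, adjusted p = 0.783). OIP5, also known as MIS18B, had 10.1 to 11.2 FPKM in pcCon and 11.3 to 13.3 in pcYY2 without overlap (log2 fold change 0.22, adjusted p = 0.187). Exons of OIP5 share 759 bases with those of OIP5-AS1 and 352 bases with NUSAP1 on the opposite strand. Whether the counting used the strand is not given in the sources used here, so reads in those bases cannot be assigned. CENPA shares 138 exon bases with SLC35F6 on the same strand. The log2 fold change of SLC35F6 was 0.0054 (adjusted p = 0.969). The summed counts of both genes gave 0.14 (adjusted p = 0.143), where 0.13 would be had if CENPA alone had changed. This sum follows from the counts of both genes, so it cannot show how reads in the shared bases were assigned.

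CENPB, whose protein binds a short box in alpha-satellite DNA, differed between the groups by less than the spread within them. Its FPKM was 29.0, 29.6 and 28.4 in pcCon and 27.5, 30.1 and 29.3 in pcYY2. The lowest and the highest value were both in pcYY2, and the log2 fold change was 0.01 (SE 0.06, adjusted p = 0.907), with a sign that changed between fits.

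The CCAN, the layer that holds CENP-A chromatin throughout the cell cycle, was uneven. Of its 12 tested genes 1 (8.33%) was higher, CENPM, against 4.52% of all tested genes. The median log2 fold change was 0.20, with values from -0.39 to 0.79. CENPM (chr22:41938721-41947164), a small GTPase-like subunit that joins CENP-H, CENP-I and CENP-K, had 3.06, 4.52 and 4.33 FPKM in pcCon and 6.31, 6.11 and 5.71 FPKM in pcYY2. The 3 pcYY2 samples lay above the pcCon samples, of which sample 1 was lowest, and CENPM rose from 3.97 ± 0.79 to 6.04 ± 0.30 (log2 fold change 0.62, SE 0.15, adjusted p = 0.0497). This call was the nearest to the threshold and was not kept when any 1 of the 6 samples was left out (adjusted p 0.0658 to 0.115). With all samples, the adjusted p of CENPM was 0.0541 with a filter at a mean FPKM of 0.1, 0.0537 with upper quartile scaling, and 0.0510 and 0.0547 with limma at a pseudocount of 1 and 0.1.

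The partners of CENP-M differed in sign and size. CENPI had 3.95 to 4.85 FPKM in pcCon and 5.44 to 6.26 in pcYY2 without overlap (log2 fold change 0.40, adjusted p = 0.0608), and CENPK, at 2.55 to 2.90 FPKM over all samples, overlapped (0.09, adjusted p = 0.503). CENPH had 3.50, 3.48 and 2.65 FPKM in pcCon and 2.42, 2.16 and 2.71 in pcYY2, and its log2 fold change of -0.39 (SE 0.15, adjusted p = 0.137) was the lowest of the 41 genes. Its groups overlapped through pcCon sample 3. Of the pair that reads the CENP-A nucleosome, CENPN had 7.37 to 8.27 FPKM in pcCon and 8.72 to 10.2 in pcYY2 (0.30, adjusted p = 0.0545), and CENPL had overlapping groups (0.27, adjusted p = 0.203). CENPC, the scaffold of the layer, stayed at 3.45 to 3.52 FPKM in pcCon and 3.18 to 3.95 in pcYY2 (0.02, adjusted p = 0.910).

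In the CENP-O branch, which carries a docking site for Polo-like kinase, CENPO had the highest log2 fold change of the layer and a wide spread. Its FPKM was 6.69, 3.44 and 4.73 in pcCon and 7.42, 9.26 and 8.81 in pcYY2, with a log2 fold change of 0.79 (SE 0.23, adjusted p = 0.0712). The groups did not overlap, but pcCon sample 1 lay close to pcYY2 sample 1, and without pcCon sample 1 the adjusted p was 0.0374. Exons of CENPO share 1488 bases with ADCY3 on the opposite strand. CENPQ (0.03) and CENPU (-0.05) of the same branch had overlapping groups and adjusted p of 0.898 and 0.720. CENPT, which also recruits the NDC80 complex, had 1.45 to 1.78 FPKM in pcCon and 1.88 to 2.30 in pcYY2 (0.35, adjusted p = 0.0893), while its partner CENPW overlapped (0.13, adjusted p = 0.460).

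**Figure D3:**
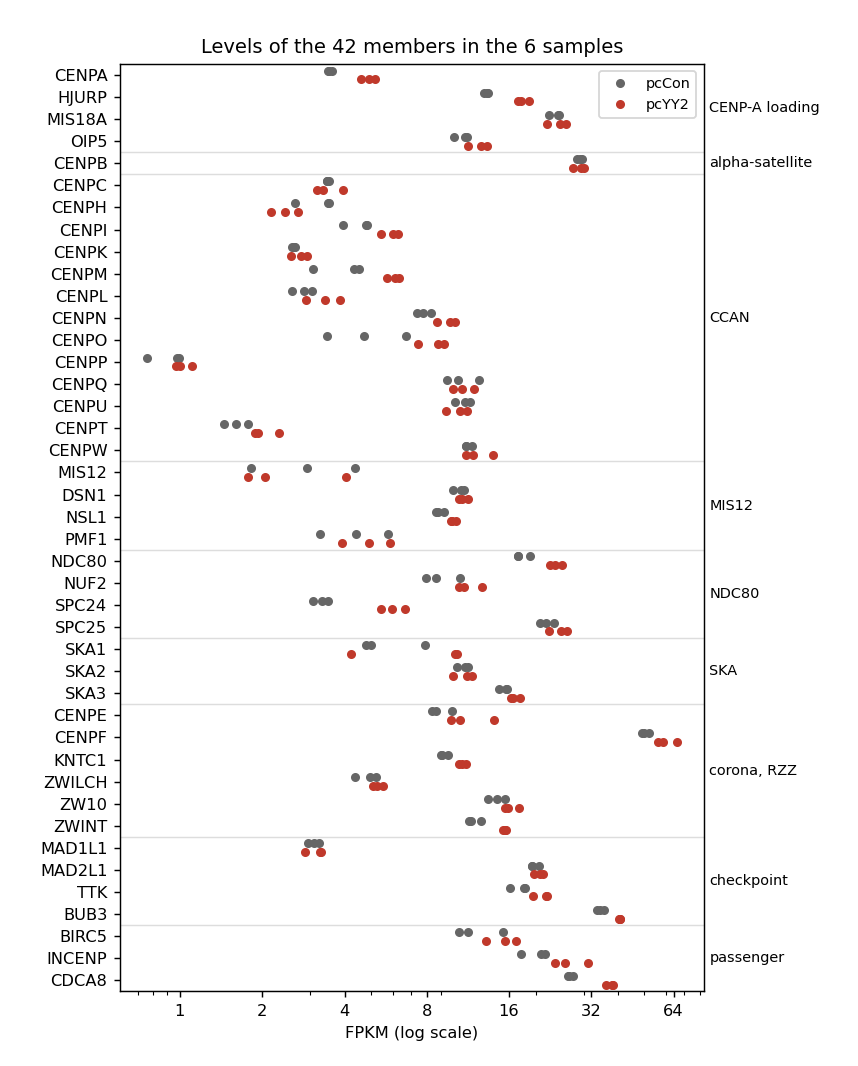
FPKM (x axis, log scale) of all 42 genes in each pcCon sample (grey) and each pcYY2 sample (red), grouped by complex. CENPF is the highest, at 48.9 to 65.8 FPKM, CENPP the lowest, at 0.756 to 1.11, and subunits of 1 complex differ widely, as SPC24 and SPC25 do.

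None of the 4 genes of the MIS12 complex, the bridge between the inner and the outer kinetochore, passed the threshold, and their median log2 fold change was 0.10. NSL1 had the smallest p, with 8.63, 9.27 and 8.80 FPKM in pcCon and 10.3, 9.81 and 9.93 in pcYY2. Its groups did not overlap, although the log2 fold change was 0.18 (SE 0.06, adjusted p = 0.0896). DSN1 had overlapping groups at 10.6 ± 0.48 FPKM in pcCon and 10.9 ± 0.42 in pcYY2 (0.05, adjusted p = 0.577). MIS12 and PMF1 scattered within the groups. MIS12 had 1.82, 2.92 and 4.36 FPKM in pcCon and 4.04, 2.04 and 1.77 in pcYY2, a coefficient of variation of 41.9% and 47.3%. With this spread its log2 fold change of -0.21 had an SE of 0.40 and an adjusted p of 0.772. PMF1 ranged from 3.24 to 5.85 FPKM and shares 587 exon bases with the read-through gene PMF1-BGLAP on the same strand. Summing both genes moved its log2 fold change from 0.14 to 0.06 (adjusted p = 0.767), where 0.12 would be had if PMF1 alone had changed. Such a sum cannot show how reads in the shared bases were assigned.

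The NDC80 complex, the rod that binds microtubules, was higher in 2 of its 4 subunits, 1 at each end of the rod. The share of higher genes over all tested genes was 4.52%. NDC80 (chr18:2571511-2616635), the subunit with the microtubule-binding head, had 17.2, 19.0 and 17.3 FPKM in pcCon and 24.9, 23.6 and 22.5 FPKM in pcYY2. Without overlap between the groups, NDC80 rose from 17.9 ± 1.02 to 23.7 ± 1.20 (log2 fold change 0.42, SE 0.06, adjusted p = 0.0149). The adjusted p was 0.0558 without pcCon sample 1 and 0.0587 without pcCon sample 3. SPC24 (chr19:11131520-11155808), at the end that docks on the inner kinetochore, had 3.06, 3.32 and 3.48 FPKM in pcCon and 5.45, 5.98 and 6.67 FPKM in pcYY2. All pcYY2 samples lay well above the highest pcCon sample, and SPC24 rose from 3.29 ± 0.21 to 6.03 ± 0.61, a log2 fold change of 0.89 (SE 0.10, adjusted p = 0.00600). This log2 fold change was the highest of the 41 genes.

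Their partners in the rod were less clear. NUF2, the partner of NDC80, had 7.96 to 10.6 FPKM in pcCon and 10.5 to 12.8 in pcYY2, and the highest pcCon sample lay just above the lowest pcYY2 sample (log2 fold change 0.34, adjusted p = 0.121). SPC25, the partner of SPC24, had 20.8 to 23.4 FPKM in pcCon and 22.3 to 25.9 in pcYY2 (0.16, adjusted p = 0.239). SPC24 was thus the scarcest transcript of the complex per length in pcCon, at 0.150 ± 0.0093 of the FPKM of SPC25, and in pcYY2 this ratio was 0.248 ± 0.025. The ratio was 0.142 to 0.160 in the pcCon samples and 0.220 to 0.268 in the pcYY2 samples. The ratio of NDC80 to NUF2 was 2.00 ± 0.32 and 2.09 ± 0.15.

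In the SKA complex, which helps the NDC80 complex to track microtubule ends, 0 of 3 genes passed the threshold by edgeR, DESeq2 or limma. At an unadjusted edgeR p under 0.05, 1727 of all 12015 tested genes were higher and 1740 lower, and in this complex 1 was higher. This was SKA3, with 15.7, 15.6 and 14.7 FPKM in pcCon and 17.5, 16.6 and 16.3 in pcYY2, which did not overlap (log2 fold change 0.14, SE 0.05, adjusted p = 0.137). SKA2 had overlapping groups at 10.9 ± 0.52 FPKM in pcCon and 11.0 ± 0.90 in pcYY2 (0.02, adjusted p = 0.856). SKA1 had 4.99, 4.81 and 7.87 FPKM in pcCon and 10.3, 4.23 and 10.2 in pcYY2. Its lowest value thus came from pcYY2 sample 2 while the other pcYY2 samples were its highest, and the log2 fold change of 0.49 had an SE of 0.36 (adjusted p = 0.412).

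The corona is the fibrous outer coat that forms on unattached kinetochores, and the RZZ complex lies within it. Of their 6 genes 3 were higher, against 4.52% of all tested genes, and the median log2 fold change was 0.26. ZWINT (chr10:56357228-56361275), which links the RZZ complex to the kinetochore, had 12.7, 11.4 and 11.6 FPKM in pcCon and 15.4, 15.6 and 15.2 FPKM in pcYY2. ZWINT rose without overlap from 11.9 ± 0.65 to 15.4 ± 0.20 (log2 fold change 0.39, SE 0.06, adjusted p = 0.0129), with an adjusted p of 0.0571 without pcCon sample 2 and 0.0516 without pcCon sample 3. KNTC1 (chr12:122527246-122626396), the ROD subunit of RZZ, had 9.56, 9.02 and 9.07 FPKM in pcCon and 11.1, 10.5 and 10.8 FPKM in pcYY2. The 3 pcYY2 samples of KNTC1 lay above the pcCon samples (9.22 ± 0.30 and 10.8 ± 0.32), with a log2 fold change of 0.24 (SE 0.05, adjusted p = 0.0313), and leaving out any 1 sample gave an adjusted p of 0.0524 to 0.112.

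CENPF (chr1:214603195-214664588), a very large coiled-coil protein of the corona and the most abundant transcript per length of the 42 genes, had 51.9, 50.0 and 48.9 FPKM in pcCon and 65.8, 56.1 and 58.6 FPKM in pcYY2. It rose from 50.3 ± 1.52 to 60.2 ± 5.06 without overlap, and pcYY2 sample 1 was the highest (log2 fold change 0.27, SE 0.06, adjusted p = 0.0394). Without pcCon sample 1, 2 or 3 the adjusted p of CENPF was 0.0866, 0.117 and 0.119, and without pcYY2 sample 3 it was 0.0867. With limma at a pseudocount of 1 and 0.1 it was 0.0620 and 0.0623. CENPE, the kinesin of the corona, had 8.37 to 9.92 FPKM in pcCon and 9.77 to 14.1 in pcYY2 (0.37, adjusted p = 0.144), with pcYY2 sample 1 again the highest. The other RZZ subunits ZWILCH (0.15, adjusted p = 0.288) and ZW10 (0.18, adjusted p = 0.164) had overlapping groups.

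**Figure D4:**
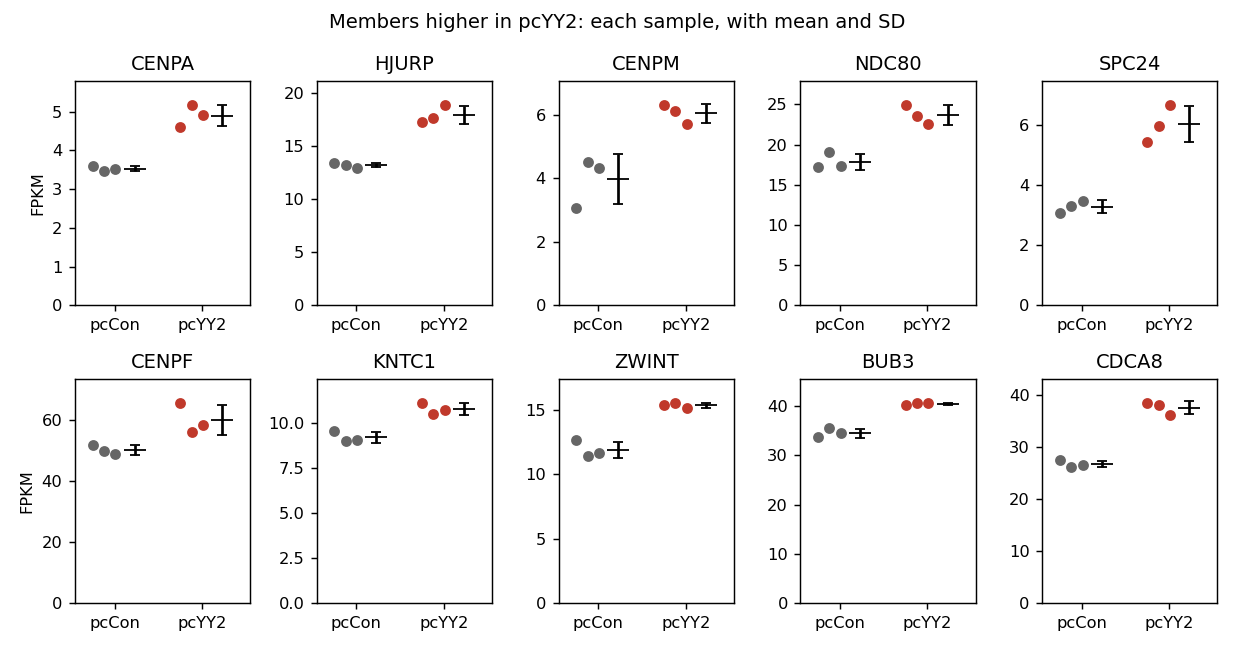
FPKM (y axis, from 0) of the 10 genes higher in pcYY2, with a point for each of the 3 pcCon samples (grey) and 3 pcYY2 samples (red) and, beside them, the mean with the SD as a bar. In all 10 panels the red points lie above the grey points, with the narrowest gap relative to the level of the gene in CENPF and the lowest pcCon point of CENPM, at 3.06 FPKM, apart from the other grey points.

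Of the 4 checkpoint genes 1 was higher, BUB3 (chr10:123154277-123170467), the WD40 protein that brings the BUB kinases to the kinetochore. Over all tested genes the share of higher genes was 4.52%. BUB3 had 33.7, 35.5 and 34.5 FPKM in pcCon and 40.3, 40.6 and 40.7 FPKM in pcYY2, so that the pcYY2 samples nearly coincided above the pcCon samples. Its mean rose from 34.6 ± 0.92 to 40.5 ± 0.20, a log2 fold change of 0.24 (SE 0.04, adjusted p = 0.0149), and the adjusted p was 0.0592, 0.0594 and 0.0567 without pcCon sample 1, pcCon sample 3 or pcYY2 sample 3. TTK, the MPS1 kinase that starts checkpoint signaling, had 17.6 ± 1.19 FPKM in pcCon and 21.1 ± 1.31 in pcYY2 without overlap, and its adjusted p was 0.0527 (log2 fold change 0.28). MAD1L1 (0.04, adjusted p = 0.799) and MAD2L1 (0.07, adjusted p = 0.450), which form the template for the checkpoint inhibitor, had overlapping groups.

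In the chromosomal passenger complex, CDCA8 (chr1:37692418-37709719), which encodes borealin, a subunit that targets the complex to centromeres, had the smallest p of all 41 genes. Its FPKM was 27.4, 26.2 and 26.5 in pcCon and 38.5, 38.2 and 36.2 in pcYY2. The gap between the groups was far wider than the spread within them, and CDCA8 rose from 26.7 ± 0.64 to 37.6 ± 1.28, a log2 fold change of 0.51 (SE 0.05, adjusted p = 0.00428). INCENP, the scaffold of the complex, had 17.7 to 21.7 FPKM in pcCon and 23.6 to 31.1 in pcYY2 without overlap (0.43, SE 0.12, adjusted p = 0.0723), and BIRC5, which encodes survivin, had 10.5 to 15.1 in pcCon and 13.1 to 17.0 in pcYY2 with overlap (0.32, adjusted p = 0.232). The kinase of the complex, AURKB, is among the further kinetochore genes and was higher too, with 8.98 to 9.89 FPKM in pcCon and 11.8 to 14.7 in pcYY2 (0.48, adjusted p = 0.0290).

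A list of 41 further genes of kinetochore proteins, regulators and binding partners held 9 that were higher and 0 that were lower, against 4.52% and 4.85% of all tested genes, with a median log2 fold change of 0.15. The count of higher genes was 4, 4, 5 and 5 without pcCon sample 1, 2 or 3 or pcYY2 sample 3, fits in which 163, 138, 149 and 173 of all tested genes were higher, against 543 with every sample. At an unadjusted p under 0.05 edgeR gave 18 higher and 1 lower, against 1727 and 1740 of all 12015 tested genes. DESeq2 and limma called 0 of the list lower. The smallest p were those of the mitotic kinase PLK1 (log2 fold change 0.49, adjusted p = 0.00587), the spindle protein SPAG5 (0.41, adjusted p = 0.00660), the checkpoint kinase BUB1 (0.35, adjusted p = 0.00663), the Ran regulator RANGAP1 (0.45, adjusted p = 0.0107) and the kinesin KIF2C (0.43, adjusted p = 0.0138).

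Genes that mark cell cycle phases were read beside these values, since many kinetochore genes are periodic. Of 30 genes of G2 and mitosis, 21 were higher and 0 lower in pcYY2, with a median log2 fold change of 0.32, among them CDCA3 (0.76, adjusted p = 0.00209), GTSE1 (0.54, adjusted p = 0.00274) and the cyclin gene CCNA2 (0.50, adjusted p = 0.00553). At an unadjusted p under 0.05 edgeR gave 26 of the 30 higher and 0 lower, against 1727 and 1740 of all 12015 tested genes. The count of 21 was 11, 8, 9 and 11 without pcCon sample 1, 2 or 3 or pcYY2 sample 3. In these fits 163, 138, 149 and 173 of all tested genes were higher, against 543 with every sample. PLK1, BUB1 and CDC20 stand in the list of G2 and mitosis as well as in that of the further kinetochore genes. Of 40 genes of S phase, 6 were higher and 2 were lower, and the median was 0.0061. The share of lower genes was near the 4.85% of all tested genes, and 4.52% of all tested genes were higher. RRM2 (0.39, adjusted p = 0.00834) and RRM1 (0.28, adjusted p = 0.0116), the subunits of ribonucleotide reductase, the helicase gene MCM7 (0.29, adjusted p = 0.0127) and RAD51AP1 (0.51, adjusted p = 0.0245) were higher, and DTL (-0.32, adjusted p = 0.0215) was lower. With 1 sample left out, 2 to 6 of the S phase genes were higher and 0 or 1 lower. The number higher was 2 without pcCon sample 1 or 2, and 3 without pcCon sample 3 or pcYY2 sample 2. Over all tested genes, 138 to 411 were higher and 147 to 401 lower with 1 sample left out. The centromere and kinetochore genes, at a median of 0.24, stood between the genes of S phase and those of G2 and mitosis, a difference between lists that was not tested.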

How the data were processed

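RNA-Seq of HCT116 cells transfected with pcCon or pcYY2, 3 samples each, was read from 1 table. The authors filtered the reads and mapped them to GRCh38 with TopHat, and the submitters' processing notes also name Bowtie2 and HTSeq. The deposited counts are whole numbers of reads per gene without normalization, and whether strand was used is not given in the sources used here. The deposited FPKM were scaled by the authors to gene length and total count, as was checked on the values of 10859 genes (largest deviation 0.00086%). Of 50868 genes, 23340 had no count.

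Groups and replicate numbers came from the labels. The 12015 genes whose mean FPKM reached 1 were tested with edgeR 4.0.16 in R 4.3.3, by the quasi-likelihood test on counts with TMM scaling (factors 0.990 to 1.01) and Benjamini-Hochberg adjustment over all tested genes, at an adjusted p of 0.05 or less. Standard errors are the log2 fold change over the square root of F. FPKM are given as mean ± SD. The fits were tested on simulated data with known changes, and the outcome is not given here. Samples of a group correlated at 0.986 to 0.988 in log2 CPM over genes.

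The 42 genes and all lists were chosen with earlier results of these data known. Values per sample are given for each gene called and for that with the smallest p in each complex, the others by range, and at most 5 genes of a further list by smallest p. CENPO, CENPH, MIS12 and SKA1 were given per sample, and AURKB and the overlapping neighbors were named, after their values were seen. Older symbols of 6 further genes, such as CASC5 for KNL1, were matched to those of the table. Gene positions are those of the table, and exon overlaps came from GENCODE 44. Promoters came from RefSeq. The alternatives were DESeq2 1.42.0, limma 3.58.1 on log2(FPKM + 1) and log2(FPKM + 0.1), other filters, scalings and thresholds, a replicate block, summed counts of overlapping genes and leaving out each sample. Protein sequences and raw reads were not used here, and 1 result is not reported here.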

Additional observations from a re-analysis of the deposited data

How the results depend on the processing

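Of the 42 genes, 33 kept the sign of their log2 fold change in every fit, and 15 passed the threshold in at least 1, the additional ones being CENPI, CENPN, CENPO, TTK and INCENP. The genes called higher numbered 9 to 11 under other filters and scalings of edgeR, 15 with DESeq2 and 8 with limma at either pseudocount. Over all tested genes, the same fits gave 464 to 560 higher with edgeR, 713 with DESeq2, and 461 and 463 with limma. The main fit gave 543. At an unadjusted p under 0.05 they were 21 (1 lower) and at an adjusted p of 0.1 or less 17. The same thresholds gave 18 (1 lower) and 14 of the further kinetochore genes, 11 (3 lower) and 10 (2 lower) of the S phase genes, and 1727 (1740 lower) and 1141 (1154 lower) of all tested genes.

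With 1 sample left out, 3 to 8 of the centromere and kinetochore genes were higher, 4 to 8 of the further kinetochore genes, 8 to 20 of the G2/M genes, 2 to 6 of the S phase genes (0 to 1 lower) and 138 to 411 of all tested genes (147 to 401 lower). These fits have fewer samples. A filter at a mean FPKM of 0.1 left 1 S phase gene lower. The log2 fold change of CENPB turned to -0.0056 with upper quartile scaling, to -0.0033 and -0.0034 with limma at a pseudocount of 1 and 0.1, and ranged from -0.0212 to 0.0515 with 1 sample left out (-0.0045 without pcCon sample 3). For MIS12, SKA1 and CENPO the spread between samples, not depth, limits the precision, and for CENPP the filter.

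Samples of pcCon and pcYY2 share replicate numbers, and their deviations from the group means correlated at -0.0211, -0.0118 and 0.00942 for numbers 1 to 3. The pcCon samples 1 to 3 each correlated best with a pcYY2 sample of another number, at 0.0509, 0.0216 and 0.0289. Such low correlations over many genes cannot tell whether samples of the same number were prepared together. With the replicate block, 2 of the centromere and kinetochore genes were higher (CDCA8 and SPC24), as were 1 further kinetochore gene, 4 G2/M genes and 51 of all tested genes (50 lower), and 0 S phase genes were higher and 0 lower (edgeR). The fit with the block has fewer degrees of freedom.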
